A study of Mus musculus with 9 samples.

Results

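The miR-99/100 and miR-125 families were followed through 7 of the 1164 entries of a small RNA count table, mmu-miR-99a, mmu-miR-99b, mmu-miR-100, mmu-miR-125a, mmu-miR-125b, mmu-miR-125b-1 and mmu-miR-125b-2. They were chosen by name, and all 7 were among the 469 entries with at least 1 count in any library. The RNA came from small extracellular vesicles (smEVs) shed by immortalised mouse kidney medullary (KM) cells, which carry a primary cilium. Bbs4 encodes a subunit of the BBSome, a coat complex that carries membrane proteins in and out of the cilium, and Bbs6 a relative of chaperonins that takes part in its assembly. smEVs were compared between Bbs4-/- cells, Bbs6-/- cells and wild-type (WT) cells, with 3 libraries per genotype. All cells were kept without serum for 24 h before the medium was collected, and the vesicles were pelleted from it by differential centrifugation.

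Each genotype was represented by 1 cell line, so genotype and cell line cannot be told apart. The replicates were separate vesicle pellets, and p-values measure the spread between such pellets only. The table holds miRNAs, so the loss of Bbs4 or Bbs6 could not be looked up in it. Library totals ran from 64118 to 130905 counts in WT, from 176935 to 457163 in Bbs4-/- and from 192654 to 423784 in Bbs6-/-, so the floor of 3 counts that a count of 0 allows ran from 6.99 to 36.5 CPM, counts scaled to a common library size. Levels are given as CPM adjusted by the trimmed mean of M-values (TMM). Bbs6-/- library 2 stood apart from its replicates, the chi-square over miRNAs, divided by its degrees of freedom, being 86.2 and 110 against libraries 3 and 4 and 12.4 between libraries 3 and 4. Several of the results that rest on it are also given without it. The correlations, the family shares and some of the ratios are given only with it. Epithelial marker miRNAs (the miR-200 family and miR-205, 5 of 6 with counts in WT and 6 of 6 in each mutant) summed to 10008 to 13309 CPM in WT, 16979 to 18931 in Bbs4-/- and 16556 to 21419 in Bbs6-/-. These sums hide members near the floor in WT. miR-200c averaged 12.1 CPM in WT (4 counts in all), 3308 in Bbs4-/- and 2748 in Bbs6-/- (176, 3654 and 4415 in libraries 2, 3 and 4). miR-141 had 0, 88 and 120 counts in WT, Bbs4-/- and Bbs6-/-, and miR-205 had 1, 4 and 7. Of the kidney tubule list, miR-30a averaged 28651 ± 3446 CPM in WT, 45980 ± 1550 in Bbs4-/- and 29234 ± 4334 in Bbs6-/- (SD, n = 3). The other 4 kidney tubule markers had counts in every genotype, at means of 2.97 to 165 CPM. The part of these differences in the results that follow was not tested. Mesenchymal markers (2 of 4 with counts in each genotype) reached at most 273 CPM and blood markers at most 170 CPM in any library. The endothelial marker miR-126a reached at most 136 CPM, and miR-122, the marker of liver or serum, at most 85.1 CPM.

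A miRNA pairs with its targets mainly through its seed, the bases just after its 5′ end. miR-125 is the vertebrate counterpart of lin-4, the first miRNA described, which times development in the nematode together with let-7. miR-99 and miR-100 belong to the older miR-10 family, and mTOR and the insulin-like growth factor receptor are among their best known targets. In mammals a miR-99/100 hairpin, a let-7 hairpin and a miR-125 hairpin lie together in tripartite clusters that arose by duplication, and several miRNAs of these clusters are usually abundant in differentiated cells.

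The mature sequences are shown because entries of this table are told apart by few bases. They were taken from RefSeq (GRCm38.p6), 5′ to 3′, with the seed (bases 2 to 8) in capitals. The miR-99/100 family shares the seed ACCCGUA, which no other mature miRNA in the RefSeq table has:

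miR-99a-5p: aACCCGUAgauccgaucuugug

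miR-100-5p: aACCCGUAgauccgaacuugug

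miR-99b-5p: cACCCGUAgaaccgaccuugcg

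miR-99a-5p and miR-100-5p differed by 1 substitution, U16A, counted from 1 at the 5′ end with the base of miR-99a first. miR-99a-5p and miR-99b-5p differed at 4 positions, A1C, U11A, U16C and U21C. Reads of miR-99a and miR-100 are therefore the most easily confused of the families, and the number of mismatches allowed in counting is not given in the sources used here.

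The miR-125 entries without a locus number share the seed CCCUGAG with miR-351, miR-6367 and miR-6394, of which miR-6367 and miR-6394 had 0 counts in all 9 libraries. The X-linked miR-351 is shown with them as the other counted member of the seed group:

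miR-125a-5p: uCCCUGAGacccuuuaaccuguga

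miR-125b-5p: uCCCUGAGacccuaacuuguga

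miR-351-5p: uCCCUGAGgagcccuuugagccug

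The entries with a locus number carry other seeds, CGGGUUA and CAAGUCA, that no other mature miRNA in the RefSeq table has. They are the products of the opposite arm of each miR-125b hairpin:

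miR-125b-1-3p: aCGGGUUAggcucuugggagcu

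miR-125b-2-3p: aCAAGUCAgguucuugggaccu

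Names in the table carry no arm. RefSeq listed a single arm for each of the 56 numbered entries that it names, out of 62, and for 53 of the 54 whose unnumbered entry it also names that entry was on the other arm. Both miR-125b hairpins give the same 5p sequence, so miR-125b counts cannot be divided between the loci, whereas the 3p products differ at 5 positions (G3A, G4A, U7C, C11U and G20C, miR-125b-1-3p first). Whether the miR-99a, miR-99b, miR-100 and miR-125a entries hold 1 arm or both is not given in the sources used here.

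The 3 clusters lie on different chromosomes (GRCm38, plus strand). Mir99b (chr17:17830188-17830257), Mirlet7e (chr17:17830352-17830444) and Mir125a (chr17:17830812-17830879) sit within 692 bases inside Spaca6, the first 2 in its introns and Mir125a overlapping an annotated exon. Mir100 (chr9:41531425-41531504), Mirlet7a-2 (chr9:41536716-41536811) and Mir125b-1 (chr9:41581926-41582002) spread over 50578 bases in introns of the noncoding transcript 3110039I08Rik. Mir99a (chr16:77598936-77599000), Mirlet7c-1 (chr16:77599657-77599750) and Mir125b-2 (chr16:77646273-77646343) spread over 47408 bases in introns of Mir99ahg. The arrangement is drawn in the map of the clusters.

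**Figure D1:**
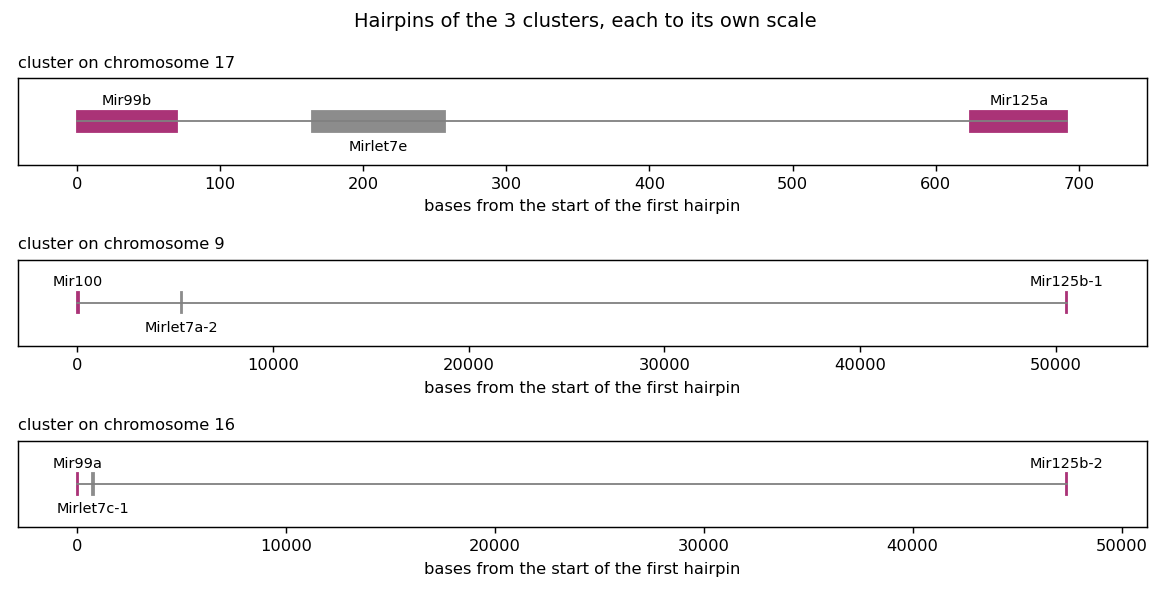
Hairpins of the 3 clusters, each on its own horizontal scale in bases from the start of the first hairpin, with miR-99/100 and miR-125 hairpins in purple and let-7 hairpins in grey. The chromosome 17 cluster spans 692 bases, against 50578 and 47408 bases for the clusters on chromosomes 9 and 16.

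Together the 7 entries held 2.59 to 3.68% of the counts of a library. Ranked by count within each library, miR-125a stood at 10 to 23, miR-99b at 20 to 30 and miR-125b at 24 to 65. miR-100 stood at 72 to 122, miR-125b-1 at 82 to 192 and miR-99a at 79 to 245. These are ranks of read counts, and ligation can favour one sequence over another. Copies made by amplification were collapsed by molecular identifier, which limits the bias of amplification and does not correct that of ligation. In a pellet, fewer vesicles that carry a miRNA and fewer copies per vesicle cannot be told apart.

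miR-99b took most of the miR-99/100 counts in every genotype, with 93.2 ± 1.16% of them in WT, 94.9 ± 0.71% in Bbs4-/- and 95.3 ± 1.18% in Bbs6-/- (mean ± SD, n = 3). Its hairpin is the first of the compact cluster on chromosome 17. Its level was 6445, 10262 and 8607 CPM in WT libraries 1, 3 and 4, the order used for WT throughout. It was 12546, 11904 and 12133 CPM in Bbs4-/- libraries 1, 2 and 3, and 11676, 7675 and 8844 CPM in Bbs6-/- libraries 2, 3 and 4. The Bbs4-/- libraries lay close together above all others, while the Bbs6-/- and WT ranges overlapped. No difference passed the test, with log2 fold changes of 0.42 (SE 0.21, adjusted p = 0.228) in Bbs4-/- and 0.18 (SE 0.20, adjusted p = 0.671) in Bbs6-/-, and a Bbs6-/- value of -0.21 when libraries were scaled by total counts.

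miR-125a, the last hairpin of that cluster, was the most abundant of the 7 and was higher in both mutants. Its level was 9169, 12329 and 10262 CPM in WT and 16815, 15426 and 17080 CPM in Bbs4-/-. In Bbs6-/- it was 13729, 24436 and 27269 CPM. At these TMM-scaled levels every mutant library lay above every WT library, and Bbs6-/- library 2 was the lowest of the mutants. As a share of all counts the ranges overlapped, with miR-125a at 1.298% in Bbs6-/- library 2 and 1.303% in WT library 3. The log2 fold change was 1.09 (SE 0.27, adjusted p = 0.0417) in Bbs6-/- and 0.52 (SE 0.19, adjusted p = 0.0950) in Bbs4-/-. Under total-count scaling the values were 0.64 (adjusted p = 0.113) and 0.36 (adjusted p = 0.121), neither of them past the threshold. The Bbs4-/- call was also lost without Bbs4-/- library 2 or 3 or WT library 4, and the Bbs6-/- call without Bbs6-/- library 3 or 4 or WT library 1 or 4, with log2 fold changes of 0.52 to 0.67 and 0.85 to 1.36 over the omissions. The difference between the mutants did not pass the test (log2 fold change -0.41, SE 0.23, adjusted p = 0.414). Without Bbs6-/- library 2 the Bbs4-/- value lay below that of Bbs6-/- by the test (log2 fold change -0.75, adjusted p = 0.00426).

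miR-100, the first hairpin of the chromosome 9 cluster, was lowest in Bbs6-/-. Its level was 547, 757 and 479 CPM in WT, 613, 484 and 412 CPM in Bbs4-/- and 132, 270 and 272 CPM in Bbs6-/-. All 3 Bbs6-/- libraries lay below the other 6, and the WT and Bbs4-/- ranges overlapped. The log2 fold change was -1.34 (SE 0.39, adjusted p = 0.0640) in Bbs6-/- and -0.35 (SE 0.31, adjusted p = 0.492) in Bbs4-/-, and Bbs4-/- lay above Bbs6-/- by 1.15 (SE 0.36, adjusted p = 0.0978). The Bbs6-/- call was lost without Bbs6-/- library 3 or WT library 1, 3 or 4, at log2 fold changes of -1.60 to -1.05 over all omissions, and the contrast between the mutants lost its call without any one of their 6 libraries, at 0.78 to 1.31.

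miR-125b-1, the passenger product that only the chromosome 9 hairpin of miR-125b gives, had the same order. It had 16, 19 and 79 counts in WT, 30, 36 and 112 in Bbs4-/- and 4, 26 and 25 in Bbs6-/-. The levels were 195, 169 and 511 CPM in WT, 190, 161 and 261 CPM in Bbs4-/- and 22.0, 88.9 and 71.6 CPM in Bbs6-/-. All Bbs6-/- libraries again lay below the other 6, and WT library 4 stood far above its replicates. The log2 fold change of miR-125b-1 was -2.20 in Bbs6-/- (SE 0.66, adjusted p = 0.0663) and -0.66 in Bbs4-/- (SE 0.46, adjusted p = 0.382), and Bbs4-/- lay above Bbs6-/- by 1.71 (SE 0.55, adjusted p = 0.0998). The Bbs6-/- call was lost without Bbs6-/- library 3 or WT library 1 or 4 (log2 fold changes -2.68 to -1.49 over all omissions), and the contrast between the mutants without any one of their libraries (1.26 to 1.96).

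miR-99a, the first hairpin of the chromosome 16 cluster, was close to absent in WT and was counted in every mutant library. It had 0, 1 and 4 counts in WT, 17, 51 and 58 in Bbs4-/- and 114, 19 and 32 in Bbs6-/-. The levels were 0, 8.91 and 25.9 CPM in WT, 108, 228 and 135 CPM in Bbs4-/- and 626, 65.0 and 91.6 CPM in Bbs6-/-. No mutant library overlapped WT, and Bbs6-/- library 2 was the highest of all. The count of 0 in WT library 1 allows up to 36.5 CPM, below the lowest mutant library. For WT library 4, with 4 counts, the separation was not beyond counting error. As a share of miR-99/100 counts, its exact 95% interval was 0.0774 to 0.725%. That overlapped the intervals of Bbs4-/- library 1 (0.473 to 1.29%) and Bbs6-/- libraries 3 (0.489 to 1.26%) and 4 (0.682 to 1.40%). As a share of all counts, miR-99a was 8.96 times as frequent in Bbs4-/- as in WT (exact 95% interval 3.74 to 28.1, from 126 and 5 counts) and 10.6 times in Bbs6-/- (4.45 to 33.1, from 165 and 5 counts), intervals that cover counting error only. Of the 165 counts, 114 came from Bbs6-/- library 2, and without it, a comparison added after the data were seen, the ratio was 4.12 (1.66 to 13.2, from 51 and 5 counts). The fitted log2 fold changes were 3.36 (SE 0.75, adjusted p = 0.00733) in Bbs4-/- and 4.15 (SE 1.11, adjusted p = 0.0498) in Bbs6-/-, and with so few WT counts they depend on the prior count of the fit.

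The Bbs4-/- increase of miR-99a passed the test whichever library was left out (log2 fold changes 3.01 to 4.72). In Bbs6-/- the value was 2.57 (adjusted p = 0.0838) without library 2 and 3.71 (adjusted p = 0.158) without WT library 1, the omission that ended the call. The difference between the mutants did not pass the test (-0.70, SE 0.75, adjusted p = 0.744), and the sign turned without Bbs6-/- library 2 (0.92, adjusted p = 0.427). miR-99a counts did not follow those of its near-identical relative miR-100, which had 45, 85 and 74 counts in WT, 97, 108 and 177 in Bbs4-/- and 24, 79 and 95 in Bbs6-/-. In Bbs6-/- library 2, which had the highest miR-99a count of the 9, the miR-100 count was the lowest. These are raw counts of libraries that differ in depth, and whether reads of miR-99a and miR-100 were exchanged in counting was not tested.

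miR-125b, the guide product of the hairpins on chromosomes 9 and 16 together, had no difference that passed the test. Its level was 4828, 10574 and 6997 CPM in WT, 5729, 6071 and 8940 CPM in Bbs4-/- and 1197, 7962 and 7748 CPM in Bbs6-/-. The 3 ranges overlapped, and Bbs6-/- library 2 lay far below the other 8. The log2 fold change was -0.22 (SE 0.27, adjusted p = 0.667) in Bbs4-/- and -0.31 (SE 0.59, adjusted p = 0.806) in Bbs6-/-, and 0.29 (SE 0.50, adjusted p = 0.811) between the mutants. Without Bbs6-/- library 2 the comparison of Bbs6-/- with WT gave 0.17 (adjusted p = 0.716).

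miR-125b-2, the passenger product that only the chromosome 16 hairpin gives, was at the limit of detection. It had 2 counts in Bbs4-/- library 2, 2 counts in Bbs6-/- library 2 and 0 in the other 7 libraries, and it did not reach the minimum total for a test. Of the counts on either locus product of miR-125b, miR-125b-1 took 114 of 114 in WT, 178 of 180 in Bbs4-/- and 55 of 57 in Bbs6-/-. In the shallowest library a count of 0 allows a level of up to 36.5 CPM. The levels of all 7 are drawn by library in the plot of CPM by genotype.

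**Figure D2:**
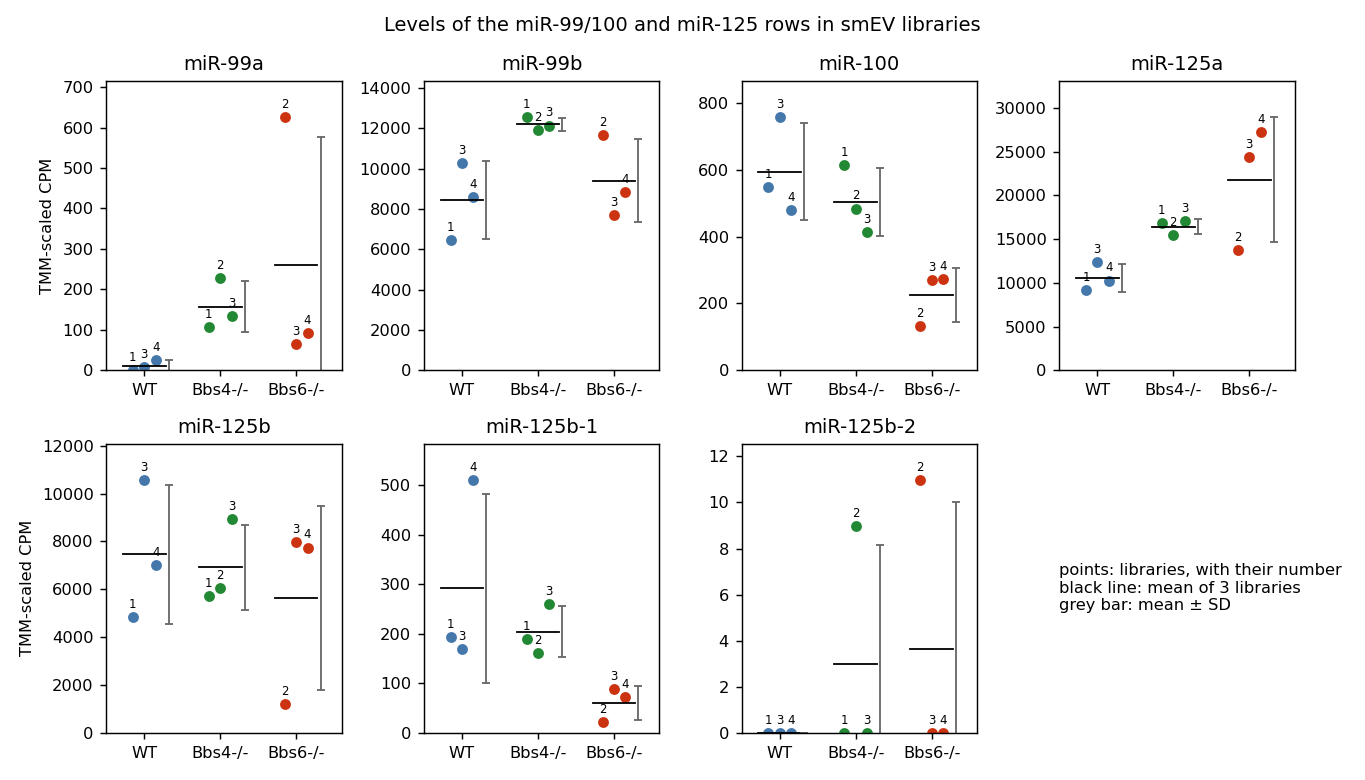
TMM-scaled CPM (vertical axes, from 0) of the 7 entries in each smEV library, as points with the library number; black lines are means of 3 libraries and grey bars the mean ± SD. miR-125a and miR-99a lie higher in all mutant libraries than in WT (at least 13729 against at most 12329 CPM for miR-125a), and miR-100 and miR-125b-1 are lowest in the 3 Bbs6-/- libraries.

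Of the 7 entries, 6 had enough counts to be tested in each comparison. In Bbs4-/- against WT, 2 were higher at an adjusted p under 0.1 (miR-99a and miR-125a) and 0 lower (edgeR, 2 at an unadjusted p under 0.05, both higher), where 8.77% of the 308 miRNAs tested were higher and 6.49% lower. At a log2 fold change of at least 2 as well, 1 was called higher (miR-99a), against 3.9% of all tested. In Bbs6-/- against WT, 2 were higher (miR-99a and miR-125a) and 2 lower (miR-100 and miR-125b-1), where 9.73% of 298 miRNAs were higher and 5.37% lower. With the fold limit, 1 was higher (miR-99a), against 2.68%, and 1 lower (miR-125b-1), against 1.34%. Between the mutants, 2 entries were past the threshold, both higher in Bbs4-/- (miR-100 and miR-125b-1), where 8.09% of 309 miRNAs were past it in either direction, and neither change reached the fold limit. DESeq2 placed the same 2, 4 and 2 entries past the threshold. The 2 comparisons with WT share the WT libraries.

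The median log2 fold change of the 6 tested entries was 0.10 in Bbs4-/-, -0.07 in Bbs6-/- and 0.33 between the mutants, beside -0.02, -0.01 and 0.04 over all miRNAs tested. Scaling by total counts moved the median of all miRNAs to -0.20 in Bbs4-/-, -0.44 in Bbs6-/- and 0.15 between the mutants. With it, higher against lower calls over all miRNAs changed from 27 and 20 to 22 and 29 in Bbs4-/-, from 29 and 16 to 11 and 27 in Bbs6-/-, and from 13 and 12 to 18 and 9 between the mutants.

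Of the 10 entries for let-7 neighbours and other relatives, 8 had enough counts. The let-7 hairpin of the compact cluster gives let-7e, whose log2 fold change was 0.74 (SE 0.22, adjusted p = 0.0448) in Bbs4-/- and 1.06 (SE 0.28, adjusted p = 0.0498) in Bbs6-/-. let-7a and let-7c are made by the hairpins of the chromosome 9 and 16 clusters and also by hairpins elsewhere, and the entries for the arms particular to Mirlet7a-2 and Mirlet7c-1 had 0 counts in all libraries. let-7a was higher by 0.58 (SE 0.20, adjusted p = 0.0739) and 1.01 (SE 0.24, adjusted p = 0.0374), and let-7c by 0.87 (SE 0.28, adjusted p = 0.0848) in Bbs6-/-, with 0.31 (SE 0.20, adjusted p = 0.365) in Bbs4-/-. The let-7a-1 and let-7c-2 entries, whose 3p sequences are the same, had equal counts in all 9 libraries.

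Other relatives moved in both directions. miR-351, with the seed of miR-125, was lower in both mutants (-1.07, adjusted p = 0.0490 in Bbs4-/- and -1.07, adjusted p = 0.0614 in Bbs6-/-). In the wider miR-10 family, miR-10a was higher (0.86, adjusted p = 0.0622, and 1.27, adjusted p = 0.0199) and miR-10b lower (-1.001, adjusted p = 0.0189, and -1.47, adjusted p = 0.0177). Of the 8 tested, 3 relatives were higher and 2 lower in Bbs4-/-, where 8.77% of all miRNAs tested were higher and 6.49% lower. In Bbs6-/- 4 were higher and 2 lower, beside 9.73% and 5.37% of all miRNAs tested. In Bbs4-/- the 5 became 0 without Bbs4-/- library 1, 3 without Bbs4-/- library 3 and 1 without WT library 4. In Bbs6-/- the 6 became 1 without Bbs6-/- library 3, WT library 1 or WT library 4, 2 without Bbs6-/- library 4 and 3 under total counts. Over all miRNAs the 27 higher and 20 lower calls in Bbs4-/- became 18 and 12, 24 and 21, and 20 and 19 with those omissions. The 29 and 16 in Bbs6-/- became 9 and 5 without Bbs6-/- library 3 or WT library 1. They became 11 and 11 without WT library 4, 13 and 17 without Bbs6-/- library 4, and 11 and 27 under total counts. Between the mutants edgeR placed 0 of the relatives past the threshold, and DESeq2 likewise 0. At an unadjusted p under 0.05 edgeR had 3, miR-10b and the let-7a-1 and let-7c-2 entries, which have equal counts and so are 1 measurement. The values are set side by side in the plot of log2 fold changes.

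**Figure D3:**
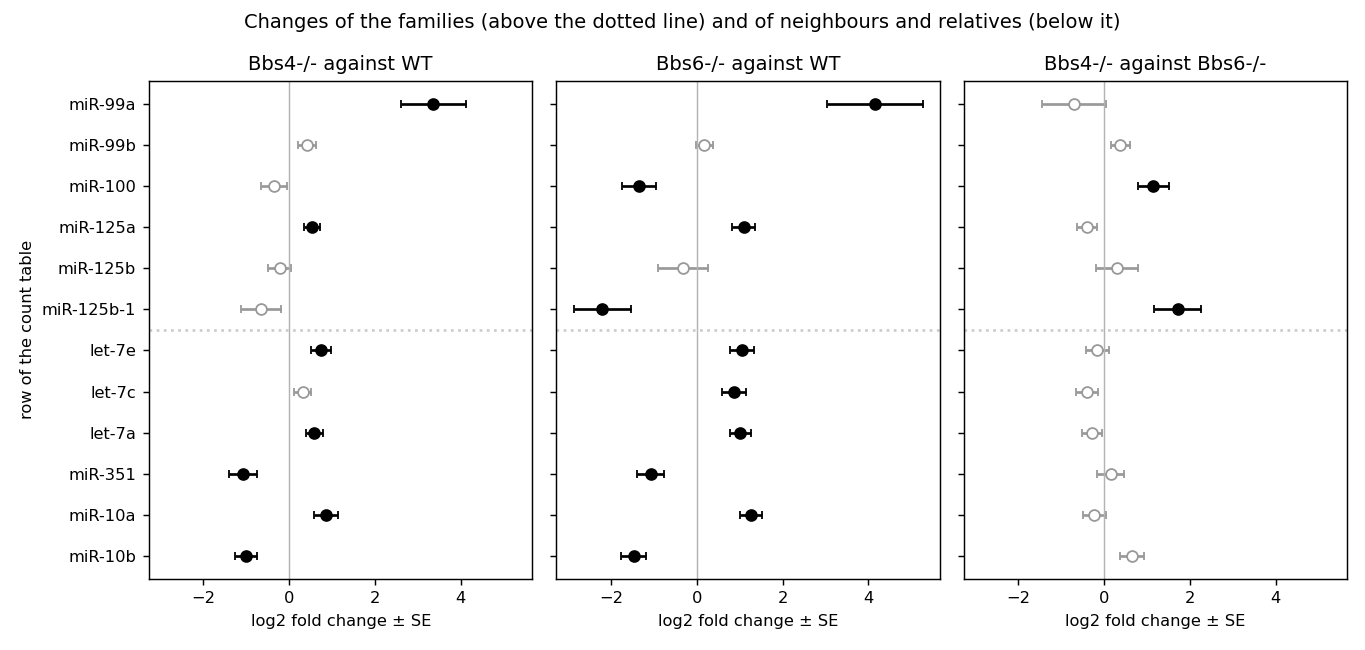
Log2 fold change ± SE (horizontal axes, edgeR) of the 6 tested entries of the families and of 6 of the relatives in the 3 comparisons, filled black where the adjusted p was under 0.1. miR-99a, at 3.36 and 4.15, has the largest change of the families against WT, and miR-100 and miR-125b-1 are filled in Bbs6-/- and between the mutants.

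Ratios of 2 entries of the same library do not depend on its scaling, and 8 of them were compared across the 3 genotypes with an exact permutation test of the F ratio over 280 partitions of the libraries (one-sided, smallest possible p 0.00357). The pairs were chosen with earlier results of these data known, which neither the p-values nor their adjustment over the 8 take into account. Of the 8, 1 passed after adjustment over the 8, the ratio of miR-125b to miR-125a, the latter already called higher in both mutants from the same libraries. These guides share a seed and come from different clusters. miR-125b counts were 52.7, 85.8 and 68.2% of those of miR-125a in WT, 34.1, 39.4 and 52.3% in Bbs4-/- and 8.72, 32.6 and 28.4% in Bbs6-/-. The genotypes did not overlap and were ordered WT, Bbs4-/-, Bbs6-/-, although the lowest WT and the highest Bbs4-/- library were nearly equal. The mean log2 ratio was -0.57 ± 0.35 in WT, -1.28 ± 0.32 in Bbs4-/- and -2.32 ± 1.04 in Bbs6-/- (SD, n = 3; exact permutation p = 0.00357, adjusted p = 0.0286). The unadjusted p was 0.0179 without Bbs6-/- library 2 and 0.0536 without WT library 3, the highest library (exact permutation). All p-values of ratios given without a library are unadjusted, so they cannot be set against the adjusted threshold. miR-125a thus made up 59.6 ± 5.84% of the counts of both guides in WT, 70.7 ± 4.57% in Bbs4-/- and 81.8 ± 8.94% in Bbs6-/-.

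Within the compact cluster both ratios to miR-99b were lower in Bbs6-/- library 2 than in its replicates. The ratio of miR-125a to miR-99b was 1.42, 1.20 and 1.19 in WT, 1.34, 1.30 and 1.41 in Bbs4-/- and 1.18, 3.18 and 3.08 in Bbs6-/-. The 6 WT and Bbs4-/- libraries lay in a narrow range with Bbs6-/- library 2 at its lower edge, while Bbs6-/- libraries 3 and 4 were far above it. Over all libraries the difference did not pass the test (exact permutation p = 0.229, adjusted p = 0.371), and without Bbs6-/- library 2 the p was 0.0143 (exact permutation). The ratio of let-7e to miR-99b gave p = 0.232 and, without that library, p = 0.025 (exact permutation). The ratio of miR-125a to let-7e lay between 1.24 and 1.95 in every library (exact permutation p = 0.571).

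In the chromosome 9 cluster, miR-100 counts were 11.3, 7.16 and 6.84% of those of miR-125b in WT, 10.7, 7.97 and 4.61% in Bbs4-/- and 11.0, 3.39 and 3.51% in Bbs6-/-, with overlapping ranges (exact permutation p = 0.511, adjusted p = 0.571). miR-125b-1 against miR-100, products particular to that cluster, gave p = 0.425 (exact permutation, adjusted p = 0.567), with mean log2 ratios of -1.17 ± 1.14 in WT, -1.30 ± 0.56 in Bbs4-/- and -1.98 ± 0.43 in Bbs6-/- (SD, n = 3). miR-99a against miR-125b had log2 ratios of -9.06 ± 0.99, -5.48 ± 0.68 and -4.74 ± 3.31 in the same order (SD, n = 3). The WT values rest on 0, 1 and 4 miR-99a counts. With a count of 0, the value of WT library 1 is set by the 0.5 added and so depends on the depth of that library. WT did not overlap either mutant, and the difference over the 3 genotypes did not pass (exact permutation p = 0.0643, adjusted p = 0.257), with p = 0.0107 without Bbs6-/- library 2 (exact permutation).

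The entries with and without a locus number were compared last. miR-125b-1 counts were 4.03, 1.60 and 7.30% of those of miR-125b in WT, 3.31, 2.66 and 2.92% in Bbs4-/- and 1.83, 1.12 and 0.924% in Bbs6-/-. The Bbs4-/- and Bbs6-/- ranges did not overlap, the mean log2 ratio of Bbs4-/- being higher by 1.20 (SE 0.35). The WT libraries spread wider than both mutants together. Across the 3 genotypes the difference did not pass the test (exact permutation p = 0.1, adjusted p = 0.267), and without WT library 3 the unadjusted p was 0.00714 (exact permutation). Because miR-125b also comes from the chromosome 16 hairpin, this ratio is not the arm ratio of the chromosome 9 hairpin alone. The plot of count ratios shows all 8 by library.

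**Figure D4:**
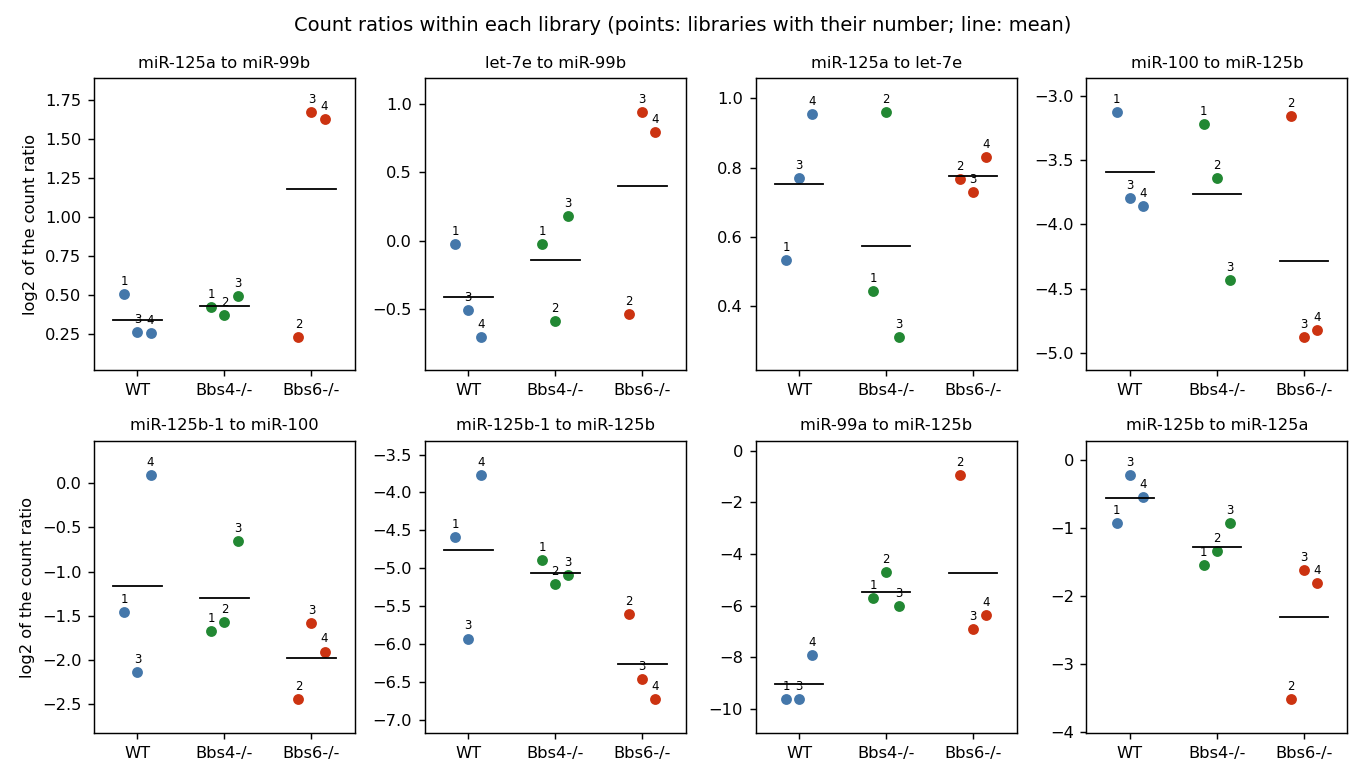
Log2 ratios of counts (vertical axes, 0.5 added to each count) of 8 pairs of entries within each library, as points with the library number and lines at the mean of 3 libraries. miR-125b to miR-125a falls without overlap from WT (mean -0.57) over Bbs4-/- (-1.28) to Bbs6-/- (-2.32). Its lowest WT library (-0.925) and highest Bbs4-/- library (-0.934) are nearly equal. Bbs6-/- library 2 lies away from libraries 3 and 4 in most panels.

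Across the 9 libraries, log2 CPM of miR-100 and miR-125b-1, which lie in 1 cluster, correlated with r = 0.797. miR-125b correlated with miR-100 at r = 0.684 and with miR-125b-1 at r = 0.657. miR-99b and miR-125a, neighbours in the compact cluster, gave r = 0.165, whereas miR-99a and miR-99b, on different chromosomes, gave r = 0.709 and miR-99a and miR-100 gave r = -0.671. These values describe 9 libraries of 3 genotypes that share depth differences and scaling, and Bbs6-/- library 2 takes part in each. Among 179 miRNAs with a mean of at least 10 counts per library, the patterns most like each entry were miR-151 (r = 0.946) and miR-148b (0.920) for miR-99a, miR-674 (0.925) and miR-744 (0.920) for miR-99b, and miR-615 (0.917) and miR-320 (0.880) for miR-100. They were let-7a (0.962) and miR-191 (0.961) for miR-125a, miR-466i (0.825) and miR-615 (0.802) for miR-125b, and miR-615 (0.887) and miR-378a (0.853) for miR-125b-1.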

How the data were processed

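The authors prepared small RNA libraries with molecular identifiers from smEV pellets, trimmed adapters with cutadapt 1.9, collapsed reads of the same sequence and identifier, and counted them per miRNA with miRDeep2, keeping the largest count where a miRNA had several entries. The deposited values are raw counts. The genome build and miRBase release of the counting are not given in the sources used here. Bbs6-/- and WT columns carry other replicate numbers than the labels and were used as replicates of their genotype.

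Counts were tested with edgeR 4.0.16 (R 4.3.3; TMM, quasi-likelihood test, Benjamini-Hochberg adjustment over all miRNAs tested), with a total of at least 6 counts over the 6 libraries of each comparison with WT, or 9 over all 9 libraries for the contrast between the mutants. Calls needed an adjusted p under 0.1 and, where stated, a log2 fold change of at least 2. The test was tried on simulated counts. Alternatives were DESeq2 1.42.0, other scalings, filters, libraries and thresholds, a replicate block, and leaving out each library. Every member is named, as are relatives that passed a threshold or entered a ratio, and the 2 miRNAs most correlated with each member. Members, lists and ratios were chosen with earlier results of these data known.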

Additional observations from a re-analysis of the deposited data

Results flagged for a closer look

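In the test of the difference between the mutants, mmu-miR-100 was higher in Bbs4-/- than in Bbs6-/- by a log2 fold change of 1.15 and mmu-miR-125b-1 by 1.71, at adjusted p-values of 0.0978 and 0.0998 (edgeR), just under the threshold of 0.1.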

How the results depend on the processing

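Against WT in Bbs4-/-, the 2 members past the threshold became 1 (miR-99a) under total counts, with all 9 libraries in one fit, at an adjusted p under 0.05 and with a replicate block, and 1 to 3 when single libraries were left out. In Bbs6-/- the 4 became 2 at an adjusted p under 0.05, 3 under total counts (without miR-125a), with filterByExpr (miR-99a not tested) and with the replicate block (without miR-100), and 0 to 4 on leaving out libraries (0 without WT library 1, 1 without Bbs6-/- library 3 or WT library 4). Between the mutants the 2 became 0 with DESeq2 size factors, with 6 libraries and at an adjusted p under 0.05, 1 without a filter or with filterByExpr, 3 with the replicate block (miR-125b added, 1.01, adjusted p = 0.00406) and 0 to 1 on leaving out libraries. Calls over all miRNAs moved as well. The 27 higher and 20 lower in Bbs4-/- became 29 and 17 with all 9 libraries in one fit. The 29 and 16 in Bbs6-/- became 9 and 5 without WT library 1 or Bbs6-/- library 3. They became 11 and 11 without WT library 4 and 42 and 25 without Bbs6-/- library 2. The 13 and 12 between the mutants became 10 and 10 with DESeq2 size factors and 9 and 12 with 6 libraries. The causes were not tested. With the replicate block the relatives past the threshold went from 5 to 0 in Bbs4-/- and from 6 to 7 in Bbs6-/-. Over all miRNAs the block gave 16 higher and 19 lower in Bbs4-/-, and 42 and 17 in Bbs6-/-.

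Signs turned for values that had not passed. The replicate block gave 0.22 for miR-125b-1 in Bbs4-/-, -0.065 for miR-99b in Bbs6-/- and 0.13 for miR-99a between the mutants, and total counts -0.21 for miR-99b in Bbs6-/-. Leaving out libraries gave ranges of -0.43 to 0.13 for miR-125b and -0.91 to 0.092 for miR-125b-1 in Bbs4-/-, -0.040 to 0.26 for miR-99b and -0.77 to 0.17 for miR-125b in Bbs6-/-, and -1.34 to 0.92 for miR-99a and -0.27 to 0.59 for miR-125b between the mutants. Same-numbered libraries had correlations of deviations from -0.133 to 0.368 and others from -0.287 to 0.147. The same-numbered values above all the others were 0.368 (Bbs4-/- and WT library 3), 0.205 (Bbs4-/- and WT library 1) and 0.154 (Bbs4-/- and Bbs6-/- library 3). The remaining same-numbered values were 0.067, 0.030 and -0.133. These values cannot decide whether shared numbers pair libraries. No label ties a number to a shared batch, so the main test took no pairing and the replicate block is given as an alternative.

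Unadjusted exact permutation p-values of the ratios, on leaving out libraries, ran from 0.0143 to 0.411 for miR-125a to miR-99b, 0.025 to 0.554 for let-7e to miR-99b, 0.00714 to 0.282 for miR-125b-1 to miR-125b, 0.0107 to 0.211 for miR-99a to miR-125b and 0.00357 to 0.0536 for miR-125b to miR-125a. Adding 1 in place of 0.5 moved no unadjusted p across 0.05. The 3 WT libraries are the shallowest, which limits what can be said of miR-99a and miR-125b-2 there.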
